A study of Oryza sativa with 3 samples.

Results

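The silicon transporter genes LSI1, LSI2, LSI3 and LSI6 were followed through 3 tissues of rice (Oryza sativa). They were chosen by locus identifier, and all 4 were found once in each of the 3 gene tables, among 51597 genes with a single identifier in all 3. Total RNA had been sequenced as 1 paired-end library each from node (nodes I and II, the joints where leaves attach and vascular bundles branch), stem and leaf blade, from rice grown at 29 °C with 12 h of light and 12 h of dark. No genotype, treatment or age was named for any tissue, and the sources used here do not say whether plants were pooled. With 1 library per tissue no difference has a replicate check or a p-value, and every interval below is the authors' deposited one, read as counting error only.

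Rice takes up silicon from the soil as silicic acid and moves it to the shoot in the xylem, where it ends as silica in leaves and husks. LSI1 and LSI6 belong to the aquaporin family and let silicic acid pass into cells passively, whereas LSI2 and LSI3 are unrelated to aquaporins and export it from cells. In roots LSI1 and LSI2 work as an entry and exit pair on opposite sides of the same cell layers. In nodes LSI6, LSI2 and LSI3 are known for passing silicon from the large vascular bundles that feed the leaf to the bundles that run on to the panicle, and LSI6 is also known for unloading silicon from the xylem in leaves. LSI1 and LSI2 are also known to carry arsenite.

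All 4 genes had their highest FPKM in node, as did 40.9% of the 20097 genes that entered the comparisons by reaching 1 FPKM in some tissue. FPKM scales the fragments of a gene to the length of its transcript and to the size of the library, so levels of different genes can be set side by side. The channels and the exporters differed in where they were lowest. LSI1 and LSI6 were ordered node, leaf blade, stem from high to low, an order found in 14.3% of the genes compared. LSI2 and LSI3 were ordered node, stem, leaf blade, an order found in 25.5%. For LSI3 the lead of node over stem held in FPKM only: by the fragments that its deposited intervals stand for, it had 112 per 1000000 of the library in node, 119.8 in stem and 0.351 in leaf blade.

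LSI6 (LOC_Os06g12310, chromosome 6, 6648387 to 6653071 in the node table), the channel of leaves and nodes, had 626 FPKM in node (interval 619 to 633), 92.2 in stem (89.9 to 94.5) and 241 in leaf blade (236 to 245). It was the most abundant of the 4 genes in every tissue, and it ranked 111 among the 51597 genes in node, 1372 in stem and 402 in leaf blade. The deposited intervals of the 3 tissues did not overlap for any of the 4 genes, but at this depth that was so for 82.1% of the genes compared in node versus leaf blade, 74.3% in node versus stem and 78.2% in stem versus leaf blade.

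LSI1 (LOC_Os02g51110, chromosome 2, 31266245 to 31269960), the root entry channel, was present in all 3 shoot tissues at much lower levels than LSI6. It had 38.5 FPKM in node (36.9 to 40.0), 8.06 in stem (7.32 to 8.79) and 11.6 in leaf blade (10.8 to 12.5). LSI6 exceeded LSI1 by 16.3-fold in node (15.5 to 17.2 from the interval bounds), 11.4-fold in stem (10.2 to 12.9) and 20.7-fold in leaf blade (19.0 to 22.8). LSI1 thus kept a share of 4.32% to 5.18% of the summed FPKM of the 4 genes in every tissue.

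LSI2 (LOC_Os03g01700, chromosome 3, 430478 to 432878), the exporter paired with LSI1 in roots, had 110.5 FPKM in node (108 to 113), 4.40 in stem (3.998 to 4.79) and 0.323 in leaf blade (0.212 to 0.434). Its node level was high, at rank 1111 of 51597, its stem level was low, and its leaf blade level rested on 34.0 implied fragments. Implied fragments are the number of fragments that the width of the deposited interval stands for. LSI3 (LOC_Os10g39980, chromosome 10, 21417240 to 21419897 in the node table), the close relative of LSI2, had 116 FPKM in node (112.5 to 119.5), 51.0 in stem (49.5 to 52.4) and 0.146 in leaf blade (0.0681 to 0.224). It was high in node and in stem and rested on 14.0 implied fragments in leaf blade. In leaf blade the intervals of LSI2 and LSI3 overlapped, so their order there was not resolved at this depth.

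**Figure D1:**
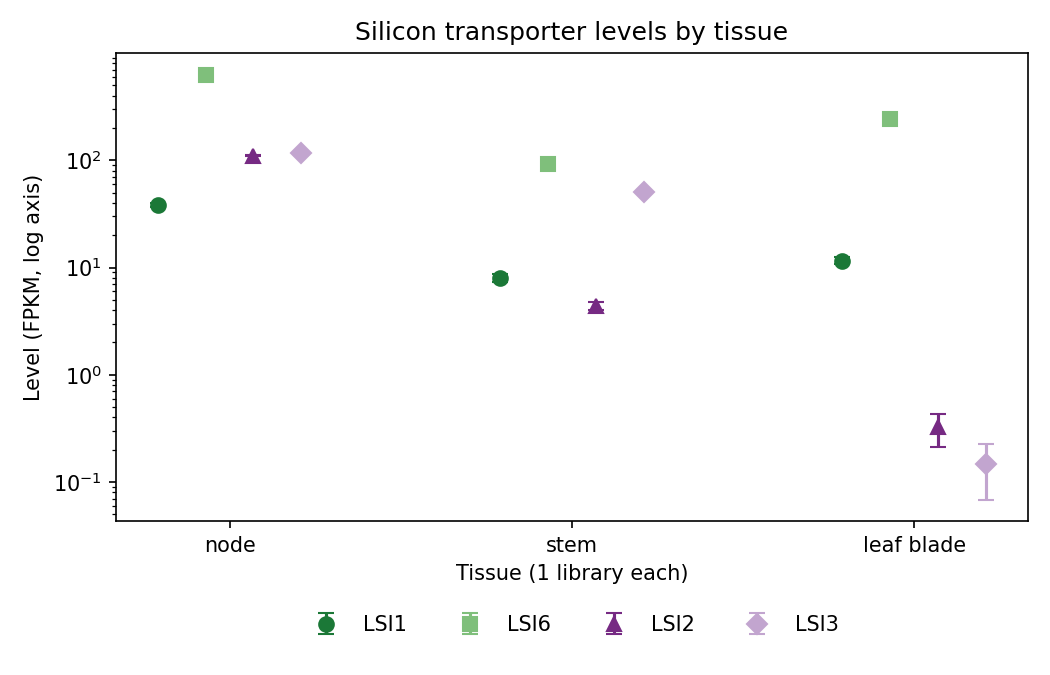
FPKM of LSI1, LSI6, LSI2 and LSI3 (log axis) in node, stem and leaf blade, 1 library each, with the deposited interval as the bar. The channels LSI1 and LSI6 stay between 8.06 and 626 FPKM in all tissues, while the exporters LSI2 and LSI3 lie at 110.5 and 116 FPKM in node and below 1 FPKM in leaf blade.

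The make-up of the silicon transporter transcripts therefore differed between tissues. The 4 genes summed to 891 FPKM in node, 156 in stem and 253 in leaf blade. LSI6 held 70.3% of that sum in node, 59.2% in stem and 95.2% in leaf blade. The exporters LSI2 and LSI3 held 12.4% and 13.0% in node, 2.83% and 32.8% in stem, and 0.128% and 0.0578% in leaf blade. The near-equal shares in node rest on FPKM. Implied fragments there, not scaled to transcript length, were 11171 for LSI2 and 4458 for LSI3. The lengths implied for LSI2 and LSI3 were 2.53 and 0.962 kb in node but 2.59 and 2.35 kb in stem. The summed FPKM of the channels was 2.93 times that of the exporters in node, 1.81 times in stem and 538 times in leaf blade. The leaf blade value is loose, because the exporters summed to 0.469 FPKM there, from 34.0 and 14.0 implied fragments. A ratio within a library does not depend on how the libraries were scaled.

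**Figure D2:**
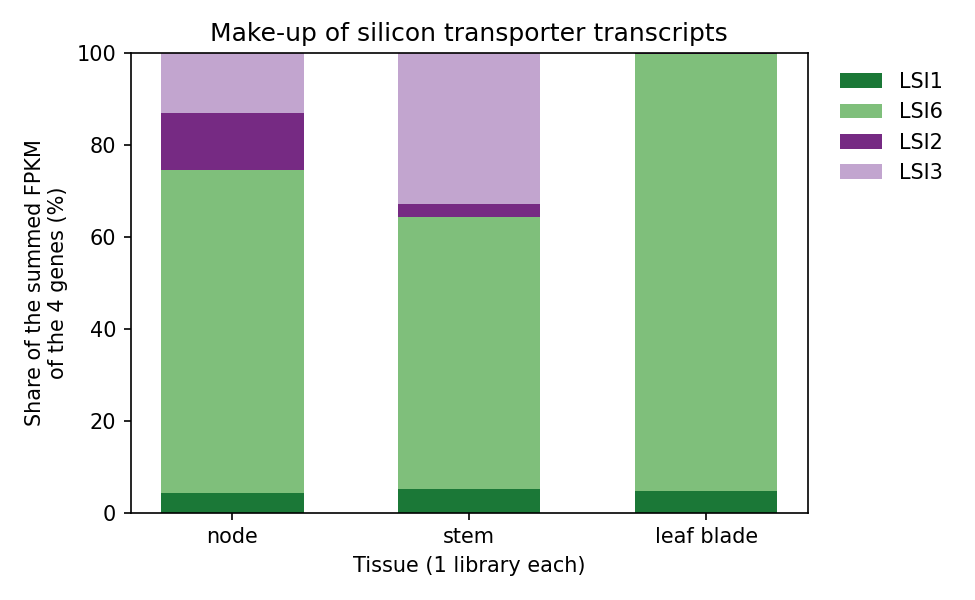
Share of each gene, in percent, in the summed FPKM of the 4 silicon transporter genes, in node, stem and leaf blade (1 library each). LSI6 holds 59.2% to 95.2%, LSI3 reaches 32.8% in stem, and the exporters are too scarce to see in leaf blade.

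The exporters stood in different proportion to each other in node and in stem. In node LSI3 was 1.05 times LSI2 (0.9995 to 1.10 from the interval bounds), so the FPKM of the exporters could not be told apart there. In implied fragments, which are not scaled to transcript length, LSI2 was 2.51 times LSI3 in node. The lengths implied there were 2.53 kb for LSI2 and 0.962 kb for LSI3. In stem they were 2.59 and 2.35 kb, and in leaf blade 2.64 and 2.40 kb. LSI2 over LSI3 was 0.0949 in fragments and 0.0863 in FPKM in stem, and 2.43 and 2.21 in leaf blade. The near equality of the exporters in node thus held in FPKM only. In stem LSI3 was 11.6 times LSI2 (10.3 to 13.1). LSI2 was also below LSI1 in stem, with LSI1 at 1.83 times LSI2 (1.53 to 2.20), whereas in node LSI1 was at 0.348 times LSI2 (0.328 to 0.369).

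Node was set against leaf blade to ask which transporters mark the joint rather than the blade. Differences are given as log2 ratios of (FPKM + 1), where a pseudocount of 1 understates differences of low genes, and 4-fold is the size from which a gene is called higher or lower. The exporters LSI2 and LSI3 counted as higher and the channels LSI1 and LSI6 stayed within 4-fold, where 12.3% of the genes compared were higher and 7.29% lower. LSI2 had a log2 ratio of 6.40 and LSI3 of 6.67, with 46 and 30 of the 20097 genes above them. In FPKM alone LSI2 was 342-fold higher in node (249.9 to 530.4 from the interval bounds) and LSI3 793-fold higher (502 to 1755). LSI1 was 3.31-fold higher in node (2.96 to 3.72), a log2 ratio of 1.65. LSI6 was 2.60-fold higher (2.53 to 2.68), a log2 ratio of 1.38. The median gene had a log2 ratio of 0.13, and rescaling the libraries to a median ratio of 1 moved that median by -0.11. In whole tissue, fewer cells of a type and less RNA per cell cannot be told apart.

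Stem was set against leaf blade to ask the same of stem. Its label names only stem and does not say whether nodes were left out. The channels were lower in stem without reaching 4-fold. LSI1 had a log2 ratio of -0.48, at 8.06 FPKM in stem and 11.6 in leaf blade. LSI6 had -1.38, at 92.2 FPKM in stem and 241 in leaf blade. The exporters counted as higher in stem, where 6.43% of the genes compared were higher and 6.52% lower. LSI3 had a log2 ratio of 5.50 and was 348-fold higher in FPKM alone (221 to 769 from the bounds), with 47 of the genes compared above it. LSI2 had a log2 ratio of 2.03, just past 4-fold, and was 13.6-fold higher in FPKM alone (9.21 to 22.6). Its log2 ratio was 1.80 at the interval bounds that bring the tissues closest and 0.82 with a pseudocount of 5, so this call rests on the scale.

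Node was also set against stem. LSI1, LSI2 and LSI6 counted as higher in node, where 6.82% of the genes compared were higher and 2.3% lower. LSI2 differed most of the 4, with a log2 ratio of 4.37 and 127 of the 20097 genes above it, at 25.1-fold in FPKM alone (22.6 to 28.2). LSI6 had a log2 ratio of 2.75, at 6.79-fold (6.55 to 7.04). LSI1 had 2.12, at 4.77-fold (4.20 to 5.47), and its log2 ratio was 1.95 at the closest interval bounds, 1.93 after rescaling to the median gene, which moved the median by -0.16, and 1.74 with a pseudocount of 5. LSI3 had a log2 ratio of 1.17, at 2.28-fold (2.15 to 2.41).

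**Figure D3:**
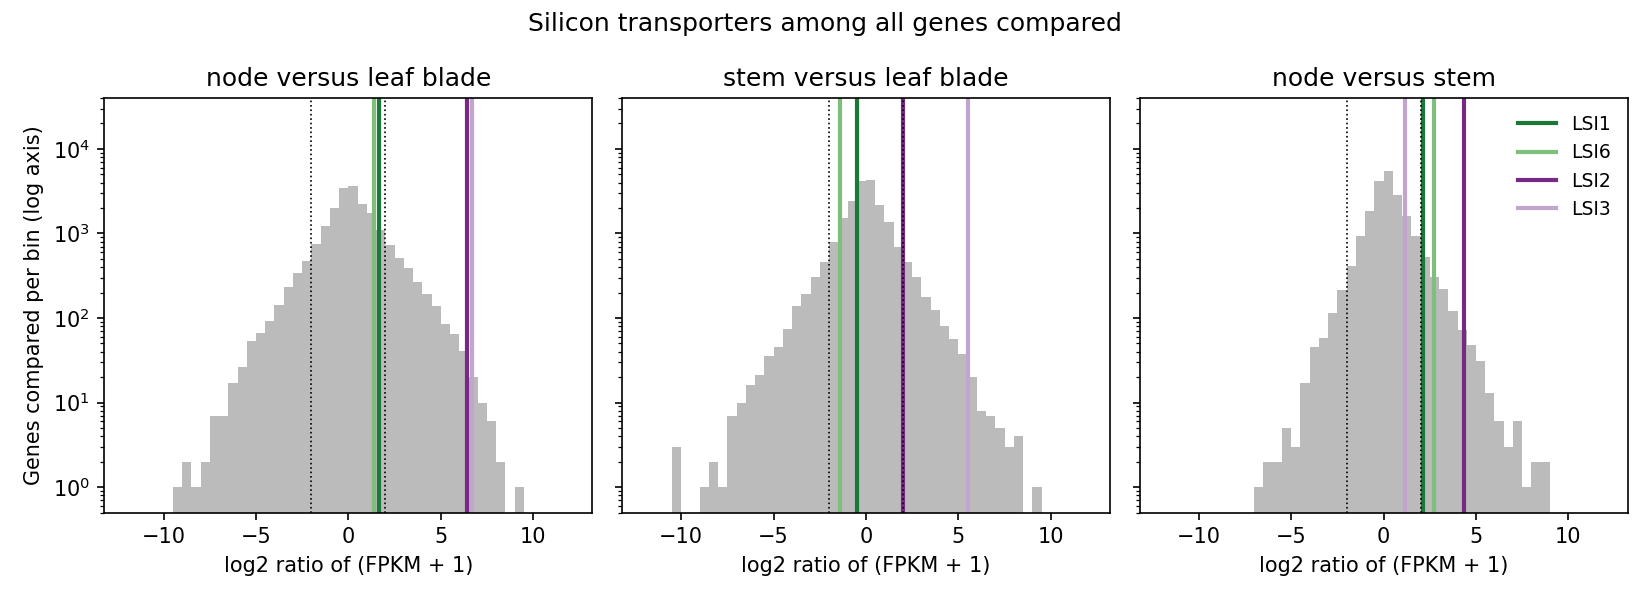
Number of genes (log axis) by log2 ratio of (FPKM + 1) among the 20097 genes compared, in 3 panels (node or stem versus leaf blade, then node versus stem), with the 4 silicon transporter genes as coloured lines and 4-fold as dotted lines. LSI2 and LSI3 lie at 6.40 and 6.67 in node versus leaf blade, and LSI3 at 5.50 but LSI2 at 2.03 in stem versus leaf blade.

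The direction for LSI3 between node and stem depended on whether deposited FPKM or the fragments inferred from its interval were read. Its implied fragments were 4458 in node and 5170 in stem, or 112 and 119.8 per 1000000 of each library's implied fragments, so they were slightly fewer in node although FPKM was 2.28-fold higher there. The implied length, the value that would turn these fragments into FPKM, was 0.962 kb in node, 2.35 kb in stem and 2.40 kb in leaf blade. Implied fragments and implied length are inferred from interval width, and any other source of width would lower them. The deposited locus of LSI3 spanned 2658 bases in node and 2605 in stem and in leaf blade. Of the 14103 genes compared with at least 100 implied fragments in both node and stem, 3.43% had a node to stem ratio of implied lengths as low as that of LSI3, which was 0.409. No other row overlapped the locus in any table. Whether another transcript model, or an interval in node widened by something other than counting, set this value was not tested.

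For the other members FPKM and fragments gave the same direction in node versus stem. The implied length of LSI2 was 2.53 kb in node, 2.59 in stem and 2.64 in leaf blade, and its node to stem fold was 24.6 in implied fragments per 1000000. That of LSI1 was 1.54, 1.38 and 1.62 kb in node, stem and leaf blade, with a node to stem fold of 5.34 in fragments. That of LSI6 was 1.30, 1.62 and 1.27 kb, with a node to stem fold of 5.47 in fragments. LSI3 in node versus leaf blade was 318-fold higher in fragments per 1000000, against 793-fold in FPKM, so it stayed far above leaf blade on either scale.

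**Figure D4:**
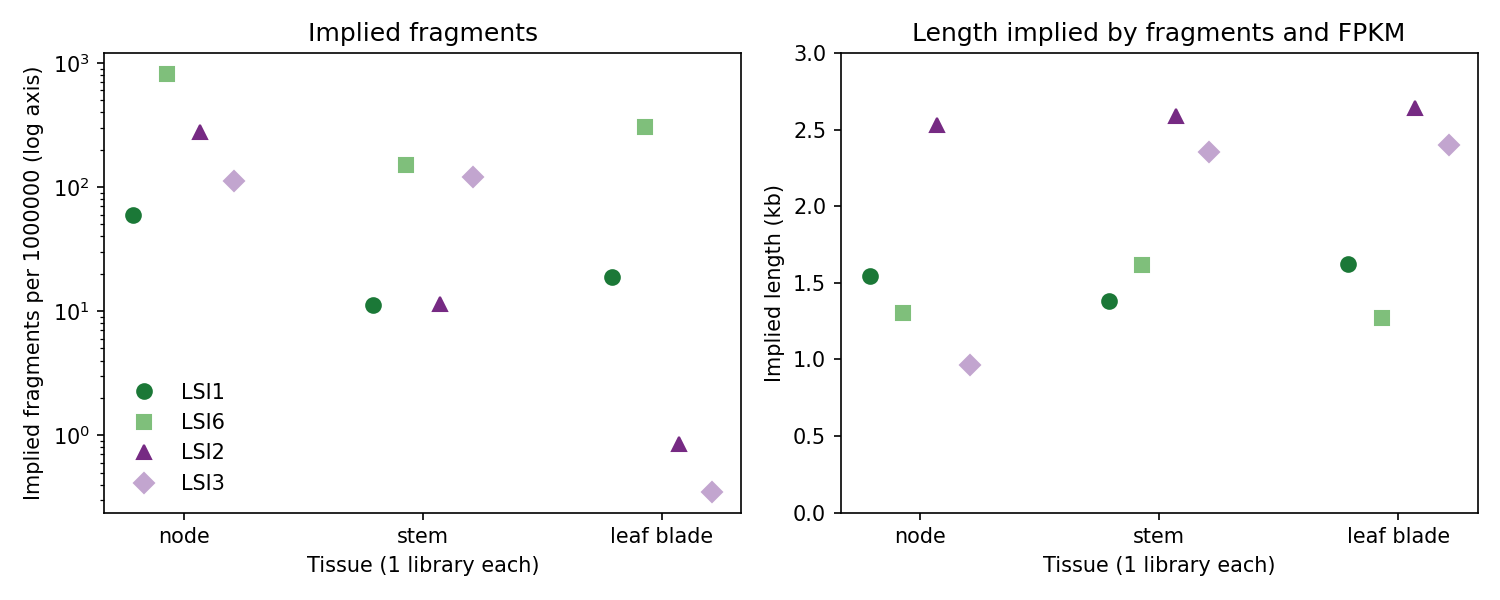
Left, implied fragments per 1000000 (log axis) and right, implied transcript length in kb, for the 4 genes in node, stem and leaf blade (1 library each). LSI3 has 112 implied fragments per 1000000 in node and 119.8 in stem. Its implied length is 0.962 kb in node against 2.35 kb in stem, while that of LSI2 stays between 2.53 and 2.64 kb.

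Markers of leaf blade, and of node and stem together, were read, with no list chosen to separate node from stem. The 5 leaf markers (antenna, photorespiration and chloroplast carbon genes) summed to 482 FPKM in node, 3475 in stem and 7037 in leaf blade. Among them, the antenna gene CAB2R, went the other way, with 2741 FPKM in stem and 1999 in leaf blade, and the other 4 had log2 ratios of -3.56 to -2.68 in stem versus leaf blade. The 6 node and stem markers (OSH homeobox genes and secondary wall cellulose synthases) summed to 440.4 FPKM in node, 526 in stem and 0.882 in leaf blade, where none reached 1 FPKM. OSH15 carried most of the stem sum, with 145 FPKM in node and 411 in stem, whereas OSH1 had 131 in node and 19.6 in stem and OSH71 had 110.1 in node and 17.3 in stem. The cellulose synthase CESA4 had 21.1 in node and 18.0 in stem, CESA7 18.5 and 25.3, and CESA9 14.3 and 34.35. Because LSI1 and LSI2 are best known from roots, 7 genes known chiefly from roots were also read. They summed to 29.5 FPKM in node, 5.44 in stem and 8.27 in leaf blade. In node the iron transporter IRT1, the nitrate transporter NRT2.1 and the ammonium transporter AMT1;2 were listed at 0, whereas the manganese transporter NRAMP5 had 13.2 FPKM, the ammonium transporter AMT1;3 had 10.7 and RCc3 had 5.38. The sodium transporter HKT2;1 had 0.288 FPKM in node. The part of these genes in the node levels of LSI1 and LSI2 was not tested.

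Other mineral transporters with known roles in rice nodes were listed by identifier, chosen for that role and with earlier results of these data known, so their standing in node is not independent evidence. Of the 12, 11 were compared, and NRAMP3 was left out because its row was merged with a neighbour in node. In node versus leaf blade 6 were higher, 1 lower and 4 within 4-fold, where 12.3% of all genes compared were higher and 7.29% lower. The median log2 ratio was 2.45 beside 0.13 for all genes compared. The largest ratios were those of the zinc transporter ZIP3 (6.74, 139 FPKM in node against 0.310 in leaf blade), the phosphate exporter PHO1;2 (4.75, 38.4 against 0.462) and the zinc and cadmium pump HMA2 (4.51, 23.5 against 0.0781). On this scale LSI2 and LSI3, at 6.40 and 6.67, lay close to ZIP3. In FPKM alone ZIP3 was 449-fold higher in node (302 to 843 from the interval bounds), between the 342-fold of LSI2 and the 793-fold of LSI3, with bounds that overlap those of both. The smallest was that of the cation transporter LCT1 (-4.11, 0.0498 in node against 17.1 in leaf blade).

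In stem versus leaf blade 4 of the 11 were higher and 1 lower, where 6.43% of all genes compared were higher and 6.52% lower. The median was 1.35 beside -0.02 for all genes compared. All 4 higher ones (PHO1;2, the citrate transporter FRDL1, the copper pump HMA5 and HMA2) were below LSI3, at 2.82 to 4.45 against 5.50. In node versus stem 4 were higher and 0 lower, where 6.82% of all genes compared were higher and 2.3% lower. The median was 1.29 beside 0.16. ZIP3 had a log2 ratio of 5.77 there, with 139 FPKM in node and 1.57 in stem, which was above the 4.37 of LSI2. SPDT, a phosphorus transporter that loads developing tissues from nodes, followed the channels in its order, with 55.3 FPKM in node, 4.89 in stem and 14.4 in leaf blade.

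**Figure D5:**
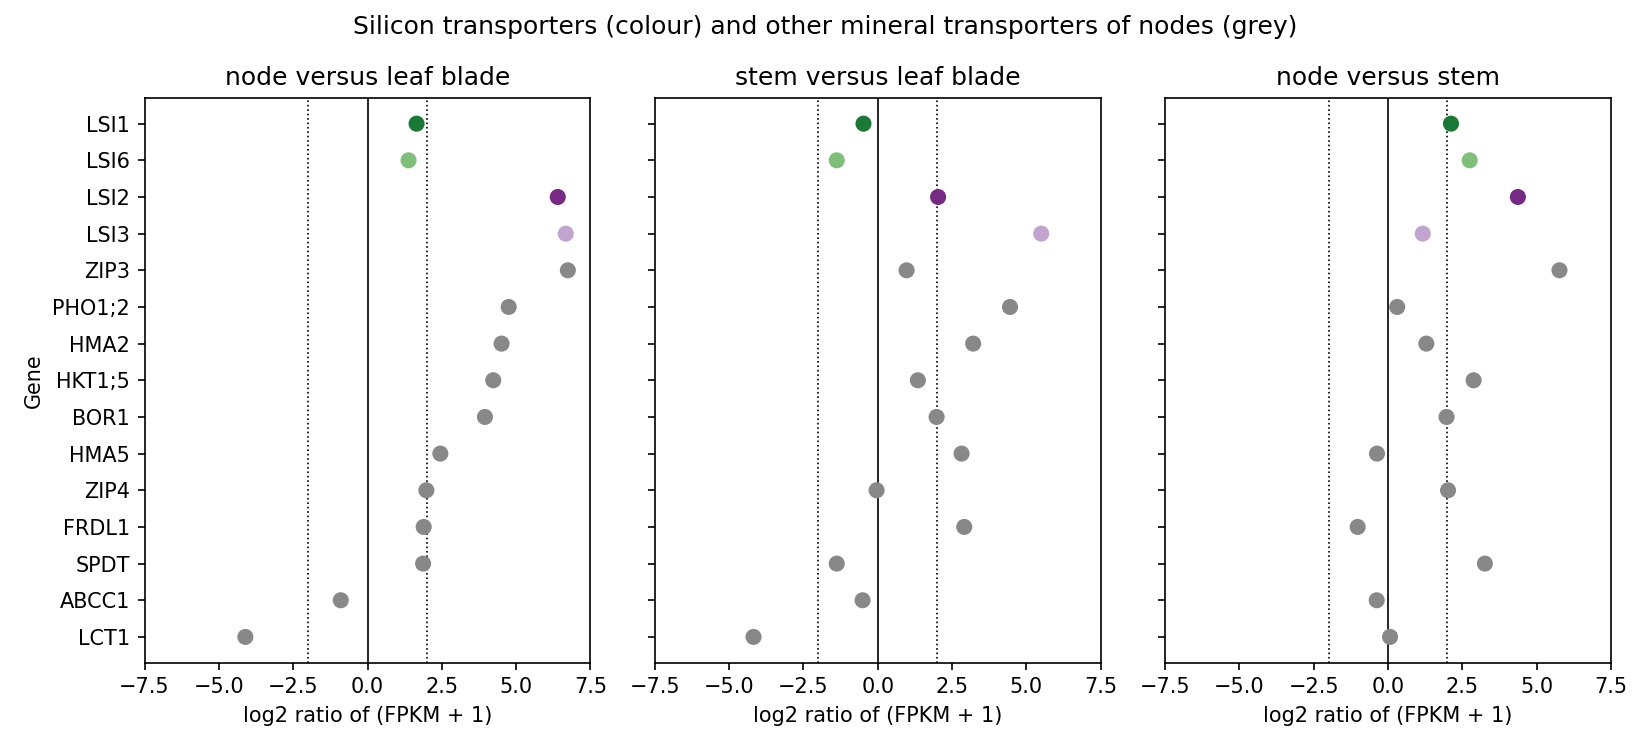
Log2 ratio of (FPKM + 1) for the 4 silicon transporter genes (colour, top rows) and 11 other mineral transporters known from nodes (grey), in the same 3 panels of tissue pairs, with 4-fold as dotted lines. ZIP3, at 6.74, lies beside LSI2 and LSI3 in node versus leaf blade, and LSI3, at 5.50, lies farthest right in stem versus leaf blade.

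The channels were read beside their own family. Of 31 other genes described as aquaporins in all 3 tables, 21 were compared. LSI6 was exceeded by 1 of the 31 in node, 8 in stem and 4 in leaf blade, so it ranked 2, 9 and 5 among them. LSI1 ranked 13 in node, 12 in stem and 13 in leaf blade. In node versus leaf blade 7 of the 21 were higher and 2 lower, where 12.3% of all genes compared were higher and 7.29% lower. Their median log2 ratio was 0.90, below the 1.65 of LSI1 and the 1.38 of LSI6. The order node, leaf blade, stem of LSI1 and LSI6 was found in 8 of the 21, and in 14.3% of all genes compared. The highest of the 21 were LOC_Os01g13120 (4.72, with 125 FPKM in node and 3.79 FPKM in leaf blade) and LOC_Os01g13130 (4.21, with 170.5 in node and 8.27 in leaf blade). The lowest were LOC_Os09g36930 (-8.59, 3.09 in node against 1579 in leaf blade) and LOC_Os05g11560 (-2.93, 1.84 against 20.6).

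In stem versus leaf blade 3 of the 21 aquaporins were higher and 2 lower, where 6.43% of all genes compared were higher and 6.52% lower. Their median log2 ratio was -0.58, between the -0.48 of LSI1 and the -1.38 of LSI6. In node versus stem 6 were higher and 0 lower, where 6.82% of all genes compared were higher and 2.3% lower. Their median was 0.50, below the 2.12 of LSI1 and the 2.75 of LSI6. The family of water and solute channels as a whole was thus spread to both sides of 4-fold against leaf blade, and LSI1 and LSI6 lay inside that spread.

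The genes of most similar pattern were found by the distance over the 3 log2(FPKM + 1) values, among 14201 genes with a specific description. Nearest to LSI2 were a RALF signalling peptide gene, LOC_Os04g28830, at a distance of 0.355 (110.5 FPKM in node, 5.50 in stem, 0.126 in leaf blade), GASR4, a gibberellin-regulated peptide gene (LOC_Os04g39110, 0.498), and a cysteine proteinase inhibitor gene (LOC_Os04g28250, 0.774). Nearest to LSI3 were a GPI-anchored protein gene (LOC_Os07g45060, 0.347), an early nodulin gene (LOC_Os06g04990, 0.408) and a proline-rich protein gene (LOC_Os07g41600, 0.606). Nearest to LSI1 were genes described as the transcription factor BIM2 (LOC_Os08g38210, 0.222), a gibberellin receptor (LOC_Os06g11130, 0.238) and a homeobox leucine zipper factor (LOC_Os03g08960, 0.284). For LSI6 the nearest lay farther off: a glutaredoxin gene (LOC_Os04g42930, 0.976), a calmodulin-like gene (LOC_Os01g72080, 1.20) and a mitochondrial carrier gene (LOC_Os08g37370, 1.22). These had the same order of tissues as LSI6, and the distance counts level as well as pattern. With 3 tissues many genes can share a pattern, and these distances describe these libraries only.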

How the data were processed

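Per the file headers, the authors deposited, for each of 3 libraries, the FPKM of every gene, both bounds of its interval, a description and a locus. The submitters' processing notes name TopHat, and the quantification program, genome build and strand are not given in the sources used here. Implied fragments were computed with n from upper bound = FPKM + 2 × FPKM / √n and summed to 39960000 in node, 43160000 in stem and 39880000 in leaf blade, to the nearest 10000; any other source of interval width would lower n. Implied length in kb is n divided by FPKM and by the summed n in units of 1000000. Locus starts were taken to count from 0 and 1 was added, which is inferred. Symbols rest on the identifiers: the files describe LSI1 and LSI6 as aquaporins and LSI2 and LSI3 as expressed proteins, and the RefSeq gene table matched 0 of the 4 identifiers. Rows with no or several identifiers were left out. Genes reaching 1 FPKM in some tissue were compared on log2(FPKM + 1), with no test. The members, lists and the rule for named genes (the members, the 3 highest and 1 lowest of the mineral transporters, the 2 highest and 2 lowest aquaporins in node versus leaf blade, and the 3 nearest patterns) were chosen with earlier results of these data known. PHO1;2, FRDL1, HMA5, HMA2, SPDT, ZIP4 and ZIP3 in the later comparisons were named after their values were seen. The comparisons share libraries. Scripts ran in Python 3.11.15 with pandas 2.3.3 and were tested on simulated data. The simulated bounds were built with the formula above, so they could not test whether the deposited intervals follow it. Pseudocounts, filters, scalings, interval bounds and implied fragments were tried as alternatives.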

Additional observations from a re-analysis of the deposited data

How the results depend on the processing

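Of 72 values of the members under alternatives (12 ratios, 6 alternatives each), 66 kept their direction and their side of 4-fold. Between node and stem the log2 ratio of LSI3 was -0.10 in implied fragments per 1000000, against 1.17, and that of LSI1 was 1.74 with a pseudocount of 5, 1.93 with a median ratio of 1 and 1.95 at the closest interval bounds. For LSI2 in stem versus leaf blade it was 0.82 with a pseudocount of 5 and 1.80 at the closest bounds. A reading by implied fragments, not scaled to transcript length and chosen after seeing the data, put LSI2 at 2.51 times LSI3 in node. That reading gave 0.0949 in stem and 2.43 in leaf blade, inside the interval range of the FPKM ratio in both. With a pseudocount of 0.1, 3976 genes were higher and 2273 lower in node versus leaf blade, 2417 and 2285 in stem versus leaf blade, and 2672 and 882 in node versus stem. With a pseudocount of 5 these counts were 1080 and 672, 582 and 542, and 483 and 183. With 0.1, in stem versus leaf blade, 7 mineral transporters were higher with a median log2 ratio of 2.14, and 4 aquaporins were lower. A small pseudocount raises the ratios of low genes by construction; for the others the cause was not tested. No paired analysis was possible because each tissue had 1 library. Depth limits LSI2 and LSI3 in leaf blade, at 34.0 and 14.0 implied fragments.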

Other observations

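The nearest neighbours of the silicon transporter genes were read as the nearest 2 genes on each side found in all 3 tables, 16 in all, of which 7 reached 1 FPKM in some tissue. Of these 7, 2 were higher and 1 lower in node versus leaf blade, where 12.3% of all genes compared were higher and 7.29% lower. The 3 compared beside LSI1 and the 1 beside LSI3 stayed within 4-fold there. The 2 higher ones were the expressed neighbours on the far side of LSI2. Log2 ratios were 2.95 for LOC_Os03g01710 (24.6 FPKM in node, 2.31 in leaf blade) and 3.04 for LOC_Os03g01720 (7.68 in node, 0.0521 in leaf blade). Neither followed LSI2 between node and stem, where their log2 ratios were 1.26 and -0.44 beside 4.37. The gene before LSI1, LOC_Os02g51100, described as an arsenical pump-driving ATPase, had 23.2 FPKM in node, 35.5 in stem and 37.5 in leaf blade, within 4-fold in every comparison. The neighbour after LSI6, an amino acid transporter gene (LOC_Os06g12320), was lower in node, with a log2 ratio of -2.92 (1.13 FPKM in node, 15.1 in leaf blade).

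Rows whose description mentions arsenical pumps or citrate transporters numbered 7, and none mentions silicon. Of these, 5 were described as citrate transporters, and only LOC_Os09g31130 passed 4-fold against leaf blade, where it was highest, with 0.348 FPKM in node, 0.0617 in stem and 4.53 in leaf blade. None was high in node and near 0 in leaf blade as LSI2 and LSI3 were.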
